A study of Caenorhabditis elegans with 12 samples.

Results

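Depletion of sqd-1 by feeding RNAi was followed in Caenorhabditis elegans that lack adr-2, by comparing 3 poly-A RNA libraries of adr-2(-) animals on sqd-1 RNAi with 3 libraries of adr-2(-) animals on control RNAi. These are the 6 libraries, of 12 in the series, whose titles carry the adr-2(-) genotype, and same-numbered libraries were treated as pairs. All 6 came from strain BB20, which carries the ok735 allele of adr-2, so the controls lack adr-2 as well. Control animals ate bacteria with the empty RNAi vector. Whole worms were collected as young adults after growth on the RNAi bacteria from hatching, for a time that the labels give as both 60 h and 72 h. The other 6 libraries hold the same feeding pair in wild-type animals of strain N2, used here only for comparison. The table of the adr-2(-) libraries lists 22905 genes, of which 14068 had a mean of at least 10 normalized reads and were tested.

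sqd-1 encodes an RNA-binding protein of the hnRNP family, related to Squid of Drosophila, and adr-2 encodes the adenosine deaminase that converts adenosine to inosine in double-stranded RNA of the worm. A C. elegans hermaphrodite makes sperm in the last larval stage and then switches its germline to oocytes for the rest of adult life. The switch is set by a chain of RNA-binding proteins and translational repressors that end at FOG-1 and FOG-3, which direct germ cells to the sperm fate. Growing oocytes take up yolk, store maternal messenger RNA and make the proteins of the eggshell, while germ cells nearer the distal tip of the gonad divide by mitosis or pass through meiosis.

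The 6 libraries held 29042770 to 33511119 reads, of which ribosomal RNA genes took 28.97% to 55.9%. That left 13310502 to 23803720 reads outside ribosomal RNA, and 1 read was worth 0.750 to 1.72 normalized reads. The libraries numbered 2 stood apart in both groups. Their mitochondrial coding genes took 3.13% and 4.95% of the reads outside ribosomal RNA, against 0.998% to 2.12% in the other 4 libraries. Genes with at least 8000 bases of exon, 98 in all, were lower in them than the mean of their group, by a median of -0.57 log2 units in control library 2 and -1.16 in sqd-1 RNAi library 2. The fit compares libraries within a pair, but pair 2 differed there too. The median change of these long genes was 0.11, -0.49 and 0.10 log2 units within pairs 1, 2 and 3. For genes with under 1000 bases of exon it was -0.12, 0.27 and -0.00064. The part of this difference between pairs in the results was not tested. The median spread between libraries of a group was 0.463 log2 units (SD, n = 3) in control RNAi and 0.511 (SD, n = 3) in sqd-1 RNAi.

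The RNAi lowered its target in every pair. sqd-1 (WBGene00022235, chromosome IV, 6324174 to 6326422, plus strand, build WBcel235) had 11358, 27881 and 17625 normalized reads in control libraries 1 to 3 and 1754, 1106 and 1261 in sqd-1 RNAi libraries 1 to 3. The groups did not overlap, and the mean under RNAi was 7.25% of the control mean. The log2 fold change was -3.72 ± 0.356 (SE, 3 pairs, limma adjusted p = 0.00784), and it was no longer called when the pairing was left out (adjusted p = 0.0627). adr-2 (WBGene00000080, chromosome III, 7231039 to 7232882, minus strand) had 2, 2 and 2 reads in the controls and 0, 4 and 0 reads under sqd-1 RNAi, below the filter for testing. In wild-type libraries the same gene had 829, 794 and 956 reads on control RNAi and 331, 533 and 465 reads on sqd-1 RNAi.

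Across all genes tested, 6411 were called at an adjusted p under 0.05, which is 45.6% of 14068. Of these 2407 rose (17.1% of genes tested) and 4004 fell (28.5%). Rises were the larger changes. The median log2 fold change was 2.03 among genes that rose and -0.77 among genes that fell, and 1910 rises but only 754 falls reached 2-fold. Every called gene moved the same way in all 3 pairs, beside 32.9% of all genes tested that were higher in all 3 pairs and 39.8% that were lower in all 3. The libraries of the groups did not overlap for 1511 of the rises and 1776 of the falls, beside 14.2% of all genes tested with every sqd-1 RNAi library above and 14.4% with every one below. Nearly all calls rest on the pairing. The same fit without the replicate block called 4 genes (0.0284% of those tested), and all of them rose: cyp-14A5, fog-3, ZK177.9 and C07G1.7. Without pair 1 the count of calls was 3796, below the main count by more than 1.5 times. With edgeR, which changes the test and the scaling together, the median of all genes moved by 0.14 log2 units and rises made up 50.1% of calls in place of 37.5%. With TMM or upper-quartile scaling alone the median moved by 0.037 and 0.045, and rises made up 39.9% and 40.5%. In these whole-animal samples fewer cells of a type and less RNA per cell cannot be told apart.

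The genes that choose between sperm and oocyte moved in opposite directions. Of 33 germline sex determination genes tested, 3 rose and 24 fell, beside 17.1% and 28.5% of all genes tested. Their median was -0.69 beside -0.03 for all genes tested. The 3 that rose were fog-3, fog-1 and snpc-1.3. fog-3 (chromosome I, 10016765 to 10018121), a Tob/BTG-family protein needed for germ cells to become sperm, had 16.3, 18.9 and 12.01 normalized reads in the controls and 464, 465 and 473 under sqd-1 RNAi. The 3 RNAi libraries lay within 10 normalized reads of each other and far above every control, a ratio of means of 29.7 and a log2 fold change of 4.83 ± 0.225 (SE, 3 pairs, adjusted p = 0.0074). fog-1, a cytoplasmic polyadenylation element binding protein that acts with fog-3, had 239.97, 589 and 442 in the controls and 909, 2649 and 1514.5 under RNAi. Its groups did not overlap either, with a log2 fold change of 1.95 ± 0.134 (SE, adjusted p = 0.00784). snpc-1.3, a subunit variant that drives transcription of male piRNAs, went from 23.9, 29.2 and 8.25 to 330.3, 1028 and 566. It overlaps acl-6 on the other strand, and since the use of strand in counting is not given in the sources used here, its value of 4.92 ± 0.428 (SE, adjusted p = 0.00784) is uncertain.

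Translational repressors of the germline were among the falls. gld-1, a translational repressor that binds messenger RNAs of the early oocyte, had 13742, 32423 and 20464 normalized reads in the controls and 4374, 10939.9 and 8868.5 under RNAi. Every RNAi library lay below every control. The log2 fold change of gld-1 was -1.47 ± 0.134 (SE, adjusted p = 0.00784). puf-8, a Pumilio-family RNA-binding protein of the mitotic and early meiotic germline, fell by 1.48, and nos-1, a Nanos-family protein, fell by 1.41, the latter beside gst-5 on the other strand. tra-2, the membrane receptor that promotes female fate, fell by 1.24, and fem-3, which promotes male fate and is kept silent for oogenesis, fell by 0.55. tra-1, the terminal transcription factor of the pathway, fell by 0.53. Without pair 1 fem-3 and tra-1 were at -0.37 and -0.54 and were not called, and fem-3 was not called by edgeR or without pair 3 (-0.63). Neither was called when limma was run without its trend option, and fem-3 was not called with no filter. tra-2, fem-3, tra-1 and her-1 were named to complete the pathway. her-1, a secreted ligand for TRA-2, was not called and its libraries overlapped, at 3.82, 6.87 and 15.01 in the controls and 6.33, 27.3 and 12.5 under RNAi.

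**Figure D1:**
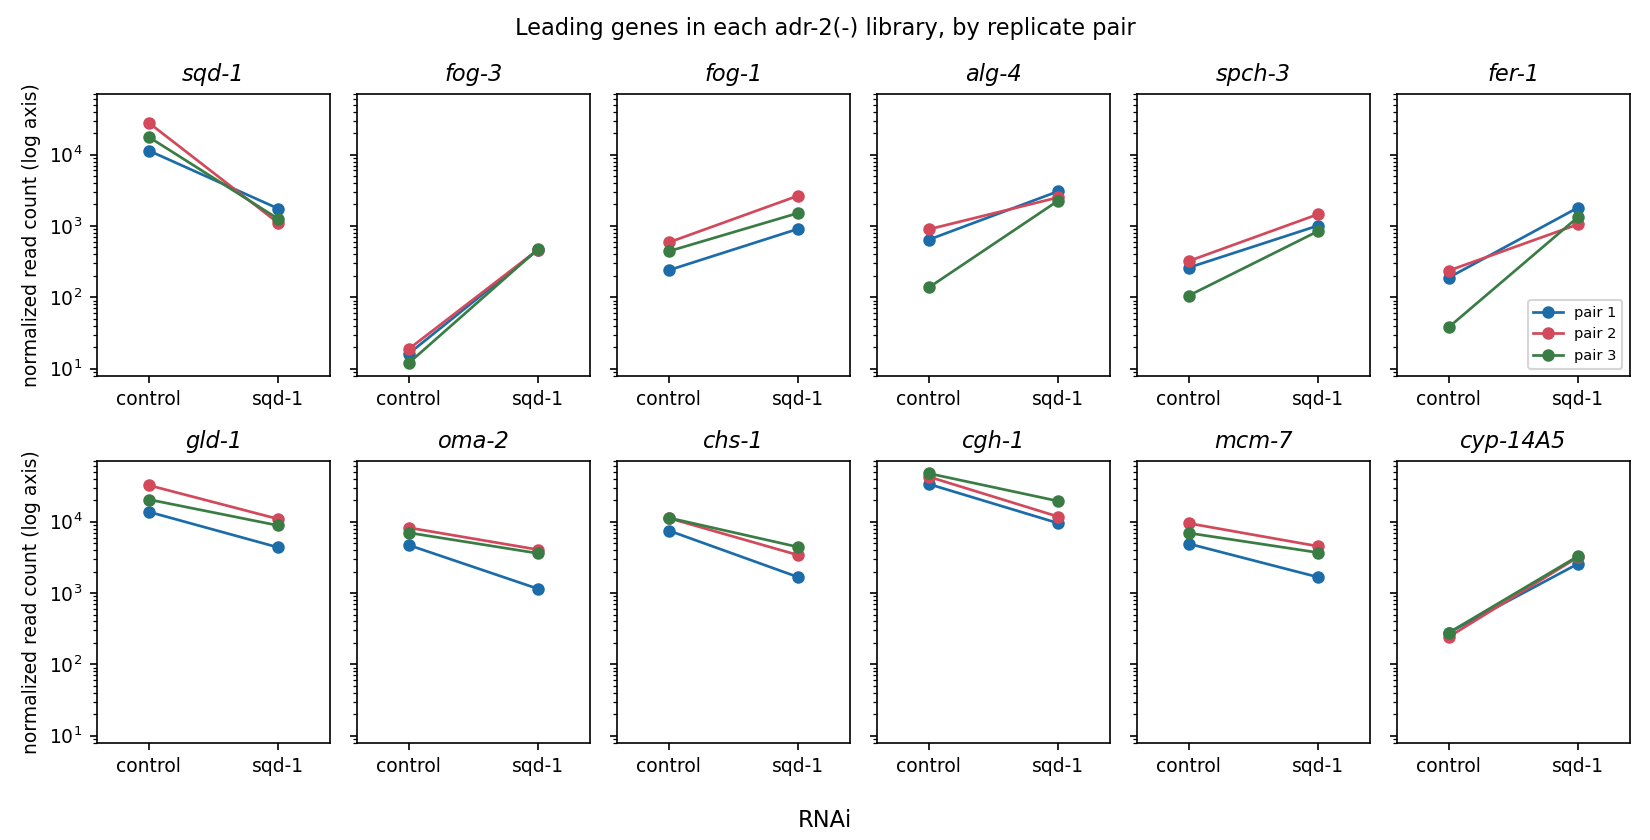
Normalized read count on a log axis for 12 genes in the 3 control RNAi and 3 sqd-1 RNAi libraries of adr-2(-) animals, with a line joining the 2 libraries of each replicate pair. fog-3, fog-1, alg-4, spch-3, fer-1 and cyp-14A5 are higher in every RNAi library than in any control library, and sqd-1, gld-1, oma-2, chs-1, cgh-1 and mcm-7 are lower.

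Genes used to make and activate sperm rose together. Of 38 spermatogenesis genes tested, 32 rose and none fell, beside 17.1% and 28.5% of all genes tested. Their median log2 fold change was 2.30. The same median was 1.97, 1.81 and 3.17 within pairs 1 to 3, and the count of rises was 28, 32 and 29 when pair 1, 2 or 3 was left out. fer-1, a dysferlin-family protein needed for fusion of sperm membranous organelles, had 189.3, 237 and 38.3 normalized reads in the controls and 1809, 1055 and 1335 under RNAi. The groups did not overlap, and the log2 fold change was 3.50 ± 0.532 (SE, adjusted p = 0.00807). spe-19, a transmembrane protein of the sperm activation pathway, rose by 3.19 ± 0.29 (SE, adjusted p = 0.00784) on the log2 scale, from 14.3, 12.01 and 6.75 to 111, 109.3 and 94.8. spe-9, a sperm surface protein needed for fertilization, rose by 2.74, from 22.9, 10.3 and 9.75 to 151, 45.5 and 121, in a stretch that overlaps C17D12.5 on the other strand. spe-44, a transcription factor for early spermatogenesis genes, did not follow them. Its controls had 271, 575 and 382 normalized reads and its RNAi libraries 419.9, 425 and 325, which overlap, and the log2 fold change was -0.01 ± 0.236 (SE, adjusted p = 0.972). It was 0.0263 with TMM scaling, 0.0341 with upper-quartile scaling and 0.12 with edgeR. spe-9 and spe-44 were chosen after their values were seen.

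The abundant structural proteins of sperm showed the same direction with a smaller change. Major sperm protein genes encode the cytoskeletal protein of the crawling sperm. Of 27 tested, 26 rose and none fell, beside 17.1% and 28.5% of all genes tested, and the median was 1.63. The summed level of all 29 genes listed was 32584, 59580.01 and 12651 normalized reads in the controls and 57887, 160920.1 and 69049.87 under RNAi. The sum of control library 2 lay above that of RNAi library 1, so the groups overlapped in level although each pair rose. The pairs differed in size, with medians of 0.89, 1.47 and 2.51, and control library 3 held the lowest sum. The genes are near-identical copies, so reads cannot be given to members with certainty, and 27, 20 and 27 members were called when pair 1, 2 or 3 was left out. msp-40 went from 1252, 1790.1 and 506 to 2749, 5771 and 3170.1 normalized reads, a log2 fold change of 1.82 ± 0.285 (SE, adjusted p = 0.00822). Of 16 MSP-domain and small sperm protein genes, 15 rose, with a median of 1.77, among them ssp-16 at 2.27 and ssp-35 at 2.11.

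Sperm chromatin and sperm kinases completed the group. Of 8 sperm chromatin genes tested, 7 rose, beside 17.1% of all genes tested, and their median was 2.18. spch-1, spch-2 and spch-3 encode protamine-like proteins that pack sperm DNA, and they rose by 2.57, 2.34 and 2.37. spch-3 had 261, 323 and 106 normalized reads in the controls and 1011, 1458.5 and 845 under RNAi, with no overlap. htas-1, a histone variant of sperm, was not called, with a log2 fold change of 1.38 and overlapping groups, from 218, 60.1 and 79.5 to 469.7, 66.8 and 594. It was called by DESeq2, with all 12 libraries fitted together and without pair 2 (1.99). his-70, a histone H3 variant, rose by 2.85. Of 8 tau tubulin kinase genes tested, 7 rose, with a median of 2.26, led by ttbk-8.1 at 2.86, which overlaps Y38H8A.4 on the other strand. The nematode-specific peptide families were mixed, with 19 of 51 rising and none falling. Male somatic and seminal markers stayed low in sum, at 65.3 to 75.5 normalized reads in the controls and 109.7 to 151 under RNAi. The sum is over the 6 genes listed, of which 4 were tested. mab-3, a DM-domain transcription factor of male development, was the member called, at 15.3, 22.3 and 10.5 in the controls and 55.2, 88.1 and 39.96 under RNAi.

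Oocyte genes fell together, by less than sperm genes rose. Of 22 oocyte growth and maturation genes tested, 18 fell and none rose, beside 28.5% and 17.1% of all genes tested. The median of these 22 genes was -0.89. Their sum was 79689, 121551 and 108675 normalized reads in the controls and 35321, 67260.06 and 63293 under RNAi, with every RNAi library below every control. The medians within pairs 1 to 3 were -1.41, -0.68 and -0.74. oma-2, a CCCH zinc finger protein that oocytes need to mature, had 4700.01, 8240 and 6999.8 normalized reads in the controls and 1147, 4061 and 3606 under RNAi. The groups did not overlap and the log2 fold change was -1.34 ± 0.233 (SE, adjusted p = 0.00955). lin-41, a TRIM-NHL protein that holds oocytes in prophase, fell by 1.31, and oma-1 fell by 1.03. rme-2, the yolk receptor of the oocyte, fell by 1.23, from 12873, 24983 and 18334 to 3984, 11707 and 9708. Of the Pumilio-family genes of growing oocytes, puf-5 fell by 1.29 and puf-7 by 1.24.

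The eggshell genes showed the largest falls of the oocyte lists. Of 16 eggshell and egg activation genes tested, 15 fell and none rose, beside 28.5% and 17.1% of all genes tested. Their median was -1.14, with medians of -1.71, -0.99 and -0.96 within pairs 1 to 3. chs-1, the chitin synthase of the eggshell, had 7502, 11226 and 11335 normalized reads in the controls and 1676, 3410 and 4422 under RNAi. All 3 RNAi libraries lay below every control, and the log2 fold change was -1.75 ± 0.173 (SE, adjusted p = 0.00784). cbd-1, a chitin-binding protein of the outer eggshell layer, fell from 41488, 85009 and 58854 to 11133, 35016 and 27901, a log2 fold change of -1.42. egg-2 and egg-5, an oocyte surface protein needed for fertilization and a pseudophosphatase of egg activation, fell by 1.32 and 1.33. Of 35 maternal polarity and embryonic fate genes, 33 fell and none rose, with a median of -1.04. Among them were spn-4, an RNA-binding protein stored for the early embryo, at -1.52, and pie-1, a zinc finger protein of the embryonic germline, at -1.51. Both overlap a gene on the other strand. The count of falls over these genes was 29, 31 and 31 without pair 1, 2 or 3.

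Yolk proteins, which the intestine makes and oocytes take up, gave no call among 6 genes, with a median of -0.08 that was 0.06 with edgeR. vit-2 had 299997, 393821 and 393421 normalized reads in the controls and 259645, 442462 and 390046 under RNAi, and the groups overlapped. Its log2 fold change was -0.02 ± 0.208 (SE, adjusted p = 0.951), and it was 0.0201 with TMM scaling, 0.0280 with upper-quartile scaling and 0.12 with edgeR. The gonadal sheath and spermatheca list, which holds somatic gonad genes and innexins of the germ cells they join, had 1 rise and 4 falls among 13 genes, with a median of -0.08 that was 0.06 with edgeR. Without pair 1 it had 2 falls, and it had no rise without any 1 pair. Its share of falls in the main fit was near the 28.5% of all genes tested. The falls there included inx-22 and inx-14, germline innexins that join germ cells to the sheath, at -0.99 and -0.86, the latter not called without pair 1 (-0.66).

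**Figure D2:**
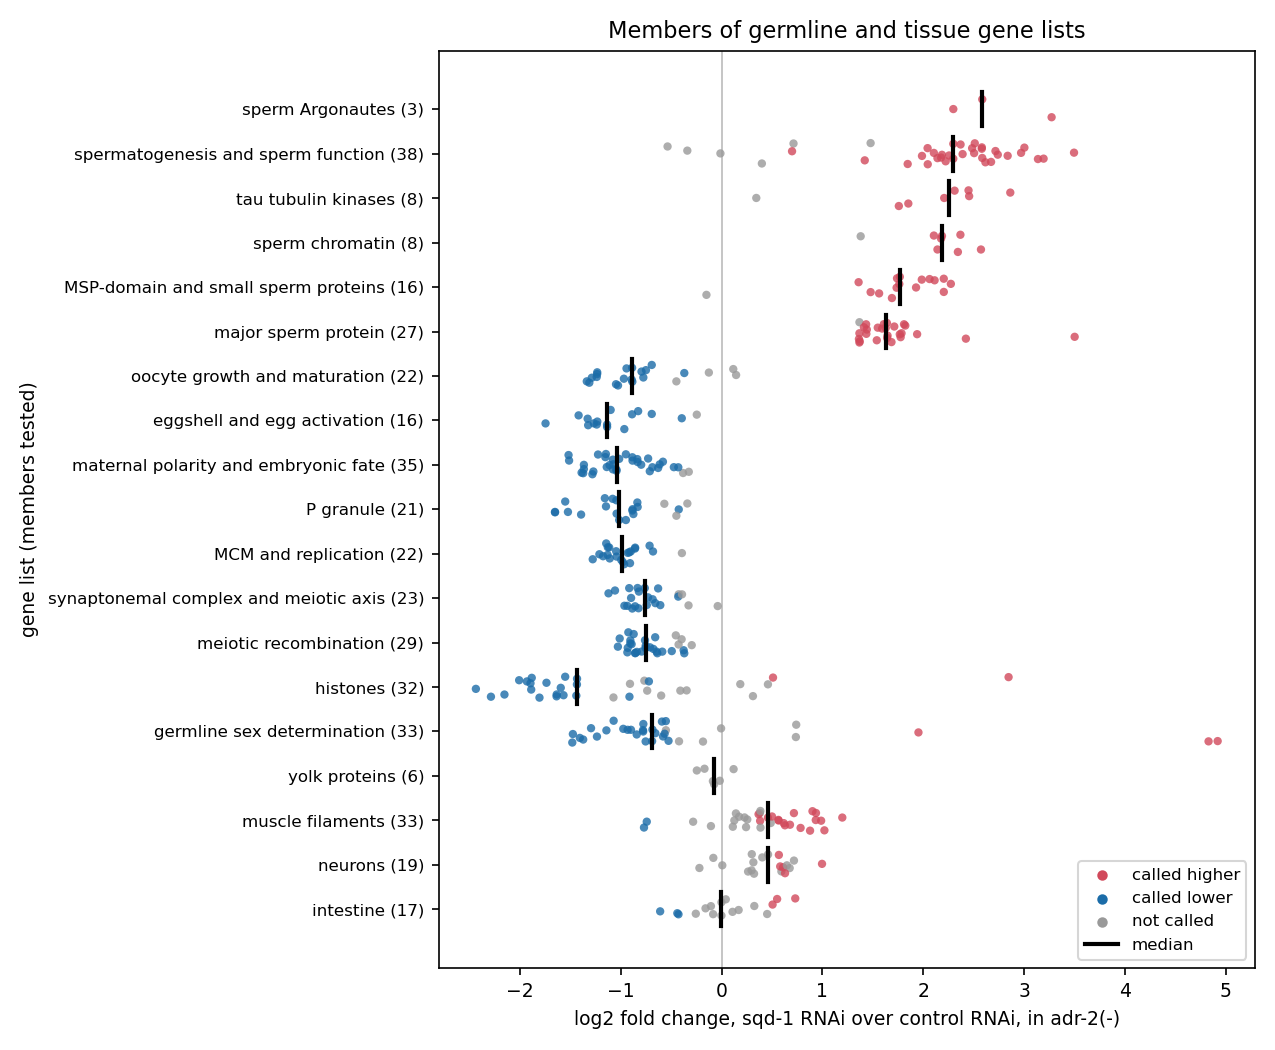
Log2 fold change of sqd-1 RNAi over control RNAi in adr-2(-) for each tested member of 19 gene lists, with the number tested in brackets, a black bar at the list's median, and color for the call. Medians of the sperm lists lie between 1.63 and 2.59, and those of the oocyte, eggshell, maternal, P granule and replication lists between -1.14 and -0.89.

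Genes of the dividing and meiotic germline fell as well. Of 13 Notch signalling genes of germline stem cells tested, 11 fell, beside 28.5% of all genes tested, and their median was -0.88. glp-1, the Notch receptor that keeps germ cells in mitosis, went from 4133, 5528 and 5574 to 1669, 2215.5 and 3417 normalized reads, with no overlap. Its log2 fold change was -1.11 ± 0.159 (SE, adjusted p = 0.00787), in a region that overlaps ZK507.1 on the other strand. sygl-1 and lst-1, the Notch targets that hold the stem cell pool, fell by 1.05 and 0.75. fbf-2, a Pumilio-family partner of these proteins, fell by 0.78, while fbf-1 was at the low end of counting, with 1.91 to 32.6 normalized reads over the 6 libraries, and was not called.

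Meiotic genes fell by less, and the counts given here stand beside 28.5% of all genes tested that fell. Of 23 genes of the synaptonemal complex and meiotic axis 19 fell, with a median of -0.76, and of 29 recombination genes 25 fell, with a median of -0.75. him-8, the zinc finger protein that pairs the X chromosomes, fell by 0.96, and msh-5, a crossover factor, fell by 1.01. P granule genes, which encode the germline's RNA and protein condensates, fell in 18 of 21 cases, with a median of -1.02. cgh-1, a DEAD-box RNA helicase that protects stored maternal messenger RNA, had 33664, 42650.3 and 47484 normalized reads in the controls and 9557, 11786 and 19486 under RNAi. The highest RNAi library lay well below the lowest control, with a log2 fold change of -1.65 ± 0.159 (SE, adjusted p = 0.00784). pgl-2, a core P granule protein, and car-1, a partner of cgh-1, fell by 1.55 and 1.52. Of 12 germ cell apoptosis genes tested all 12 fell, among them ced-9, the inhibitor of cell death, by 1.27 and ced-3, the caspase, by 0.97.

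Replication genes were near-uniform. Of 22 tested, 21 fell and none rose, beside 28.5% and 17.1% of all genes tested, and the median was -0.99. In 16 the groups did not overlap, beside 14.4% of all genes tested with every RNAi library below every control. mcm-7, a subunit of the replicative helicase, went from 4904, 9486 and 6936 to 1672, 4532 and 3693 normalized reads. Its log2 fold change was -1.18 ± 0.154 (SE, adjusted p = 0.00784), with F32D1.3 on the other strand. Of 25 cell cycle kinases and cyclins 21 fell and 1 rose, with a median of -0.87. cyb-3, a B-type cyclin, fell by 1.46, and cdk-4 fell by 1.39. Histone genes, whose transcripts mostly lack poly-A tails and are near-identical copies, fell in 20 of 32 cases and rose in 2, with a median of -1.44. his-67, an H4 gene, went from 525, 739.7 and 329 to 100.45, 82.0 and 130.06, a log2 fold change of -2.29 ± 0.351 (SE, adjusted p = 0.00814). Of 20 germline chromatin genes 14 fell and none rose.

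Within several families the member known from sperm rose while its relatives fell. Of the 4 protein phosphatase 1 catalytic subunit genes, gsp-3 and gsp-4, which act in sperm, rose by 2.11 and 2.18, and gsp-1 and gsp-2, which are broadly used, fell by 0.51 and 0.74. gsp-4 went from 620.5, 685 and 255 to 1917, 2642 and 1992 normalized reads, whereas gsp-2 went from 5181, 7349 and 6446 to 3135, 4436 and 3749, and neither overlapped. The call for gsp-1 was lost under edgeR, without limma's trend option, without pair 1 (-0.57) and without pair 3 (-0.52). gsp-3 and gsp-4 are near-identical, so reads between them may be split.

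The Argonautes, which carry small RNAs, divided in the same way. All 3 sperm Argonautes rose, alg-3 by 2.30, alg-4 by 2.59 and wago-10 by 3.27. alg-4 had 642, 898 and 137 normalized reads in the controls and 3053, 2510.04 and 2255 under RNAi. Of 16 other Argonautes 11 fell and none rose, beside 28.5% and 17.1% of all genes tested, and their median was -0.77. wago-4, which passes small RNAs to the next generation, went from 2618, 4601 and 3806 to 721, 1472 and 1389, a log2 fold change of -1.65 ± 0.125 (SE, adjusted p = 0.00784). csr-1, the Argonaute of germline-expressed genes, fell by 0.88, and prg-1, the piRNA Argonaute, fell by 0.84, the latter beside D2030.12 on the other strand. Of 15 genes of piRNA transcription and maturation 11 fell and 1 rose, the rise being snpc-1.3, and tofu-6 fell by 1.24.

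Some other lists held a riser whose relatives fell or were not called. cdc-25.4 was the cell cycle gene that rose, from 40.2, 42.9 and 14.3 to 183, 180.2 and 247 normalized reads. Its log2 fold change was 2.74 ± 0.435 (SE, adjusted p = 0.0084), while cdc-25.1, a phosphatase of germline proliferation, fell by 1.22. klp-17 was the kinesin that rose, at 2.67 and overlapping rga-1, whereas klp-15 and klp-16, motors of the acentrosomal spindle, fell by 1.38 and 1.20. In the proteasome, where 28 of 33 genes fell, rpn-6.2 rose by 1.05 and its paralog rpn-6.1, a lid subunit, fell by 0.84. rpn-6.2 had 362, 187 and 286 in the controls and 609.9, 467 and 609 under RNAi. Among cytoplasmic ribosomal protein genes rpl-42 stood apart, going from 29.6, 39.5 and 9.75 to 162, 144 and 174. Its log2 fold change was 2.76 ± 0.449 (SE, adjusted p = 0.00864), beside a list median of -0.36. Both rpn-6.2 and rpl-42 lay above every control library in all 3 RNAi libraries.

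Genes of the double-stranded RNA response, the pathway through which feeding RNAi acts, had more falls than rises. Of 27 tested, 16 fell and 1 rose, beside 28.5% and 17.1% of all genes tested, and the median was -0.60. Without pair 1, 8 fell and none rose. rde-10 and rde-8, factors that act on the target messenger RNA, fell by 1.04 and 1.03, and mut-7 and mut-15, of the mutator complex that amplifies small RNAs, fell by 1.01 and 1.02. rde-4 and rde-1, the double-stranded RNA binding protein and the primary Argonaute, fell by 0.69 and 0.59, and dcr-1, the Dicer enzyme, was not called at -0.36. adbp-1, a binding partner of ADR-2, fell by 0.61 from 585, 939 and 783 to 300.4, 654 and 617, with overlapping groups, and its call was lost under edgeR, without pair 1 (-0.43) and without pair 2 (-0.65). The call for rde-1 was lost in the same 3 settings, at -0.42, -0.60 and -0.44. Both calls were also lost when limma was run without its trend option. rde-4, rde-1 and dcr-1 were named to complete the pathway.

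RNA-binding proteins of the hnRNP and SR families fell in 20 of 28 cases, sqd-1 itself included, and 1 rose. The shares over all genes tested were 28.5% and 17.1%, and the list median was -0.75. hrpf-2 fell by 1.00 and rsp-6 by 0.98. sup-12, a muscle splicing factor, was the rise, at 0.73, and was not called without pair 1 (0.75) or pair 2 (0.55). Of the 4 Y-box proteins, cey-2 and cey-3, which are germline messenger RNA binding proteins, were at -1.37 and -1.28 and the other two were not called. cey-2 went from 17086, 38687 and 26626 to 5507, 15263 and 12236 normalized reads, with no overlap.

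The largest rises lay mostly in genes that carry only a sequence name. Ranked by fold change among called genes whose groups did not overlap and whose higher mean reached 100, the first was C07G1.7 (WBGene00015573, chromosome IV, 8210906 to 8211847). It had 3, 2 and 1 reads in the controls, equal to 2.87, 3.43 and 0.75 normalized reads, and 727, 780.3 and 433 normalized reads under sqd-1 RNAi. The next, ZK177.9 (WBGene00022674, chromosome II, 5517157 to 5517743), had the same 2.87, 3.43 and 0.75 and rose to 252, 231 and 133. With so few control reads no fold is given for either. Both overlap a gene on the other strand, svh-1 for C07G1.7 and ZK177.3 for ZK177.9. F46F5.11 and F28A10.1, on chromosome II, rose by 4.59 and 4.38, and F56G4.7, F21A3.4 and Y1A5A.1 rose by 4.32, 4.06 and 4.005. gmeb-3 rose by 4.04, from 12.4, 25.7 and 0.75 to 151, 190.3 and 95.6.

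Ranked by the same rule, the largest falls after sqd-1 were asp-17, an aspartyl protease gene, at -2.50 and C45H4.14 at -2.33. asp-17 went from 142, 360.4 and 99.8 to 23.5, 66.8 and 16.5 normalized reads, and each pair fell by a like amount. The histone genes his-67, his-63, his-59 and his-1 took 4 of the 12 places, at -2.29, -2.15, -2.01 and -1.93. vet-2, a transcript first described in early embryos, fell from 79.4, 161 and 316 to 19.004, 38.5 and 64.2, by 2.11. ZK185.9, a small nucleolar RNA, fell by 2.07 and overlaps ZK185.2.

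Among muscle and neuronal genes rises outnumbered falls, by counts that depended on the pairs. Over all genes tested 17.1% rose and 28.5% fell. Of 33 muscle filament genes 18 rose and 2 fell, with a median of 0.46, and 10, 13 and 10 rose without pair 1, 2 or 3. unc-54, the major body wall myosin heavy chain, rose by 0.78 ± 0.154 (SE, adjusted p = 0.0123), from 51964, 52569 and 41262 to 78283, 107040 and 68638 normalized reads, and was not called without pair 1 (0.88). ttn-1, the giant titin-like protein, rose by 1.02 with 4558, 257 and 1435 in the controls and 11642, 312 and 3874 under RNAi. Its levels were lowest in the libraries numbered 2 of both groups, and it is among the long genes that are low there. ttn-1 was not called without pair 1 (0.85), without limma's trend option or when all 12 libraries were fitted together. The falls were act-2, a cytoplasmic actin, at -0.77 and unc-60, an actin depolymerizing factor, at -0.74. Of 19 neuronal markers 5 rose and none fell, with a median of 0.46, and 1, 3 and 2 rose without pair 1, 2 or 3. Of 87 neuropeptide genes 18 rose, near the share of all genes, and 1 fell. The count of neuropeptide rises was 9, 2 and 24 without pair 1, 2 or 3. Rises over all genes were 1542 of 13902, 1947 of 14080 and 2452 of 14093 in these settings. The neuropeptide count thus rests on the pairs chosen, while the list median stayed positive at 0.74, 0.48 and 0.63. Among the 17 intestinal markers 3 rose and 3 fell, with a median of 0.00 that was 0.04 with TMM or upper-quartile scaling and 0.14 with edgeR. Rises there were 1, 1 and 1 and falls 0, 3 and 0 without pair 1, 2 or 3.

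Enzymes of detoxification and fat metabolism held a few large changes, beside 17.1% of all genes tested that rose and 28.5% that fell. Of 52 cytochrome P450 genes 4 rose and 6 fell, both below the shares of all genes. There were 2 rises without pair 1, and cyp-14A5 was among the 4. It had 279, 244 and 279 normalized reads in the controls and 2578, 3196 and 3295 under RNAi, a ratio of means of 11.3. Its libraries agreed closely within each group, the log2 fold change was 3.49 ± 0.144 (SE, adjusted p = 0.00571), and the gene was called without the pairing too. cyp-31A2 and cyp-31A3, which supply lipid for the eggshell, fell by 1.03 and 0.97. Of 53 UDP-glucuronosyltransferases 17 rose and 3 fell, and 5, 8 and 14 rose without pair 1, 2 or 3, with ugt-29 at 2.04, from 288, 405 and 272 to 1177, 1380.5 and 1365. Of 37 glutathione S-transferases 9 rose and 3 fell, and none fell without pair 1 or pair 3, with gst-24 at 2.68, from 37.3, 41.2 and 30.01 to 233, 347 and 159.

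Among 16 fatty acid desaturases and elongases 6 rose and 2 fell, and 1 fell without pair 1. fat-7, a delta-9 desaturase that makes oleic acid, had 1015, 1933 and 771 normalized reads in the controls and 3540.2, 6588 and 5640 under RNAi, with no overlap. Its log2 fold change was 2.15 ± 0.241 (SE, adjusted p = 0.00784), and that of the related fat-5 was 1.26. fat-6, the close paralog of fat-7, was not called at 0.35. elo-7 rose by 3.17, in a stretch that overlaps F56H11.2, and elo-2, an elongase of palmitic acid, fell by 0.96.

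Defense genes were mixed, beside 17.1% of all genes tested that rose and 28.5% that fell. Of 92 C-type lectin genes 22 rose and 9 fell, and 12 rose and 6 fell without pair 1, led by clec-119 at 2.92 and clec-73 at 2.66 among rises and clec-91, clec-88 and clec-87 at -1.36, -1.25 and -1.23 among falls. clec-73 went from 388, 142 and 114.8 to 1551, 702 and 1503. Of 13 pals genes of the intracellular pathogen response 3 rose and none fell, and none rose without pair 1. Heat shock genes fell in 17 of 46 cases and rose in 1, with 11 falls and no rise without pair 1. hsp-60, the mitochondrial chaperonin, went from 9449, 4807 and 11389 to 3014, 2167 and 4093, a log2 fold change of -1.42, and sod-2, the mitochondrial superoxide dismutase, fell by 1.05 in a stretch shared with dpt-1. Of 172 nuclear hormone receptors 10 rose and 7 fell, both below the shares of all genes. Without pair 1, 2 or 3 the rises were 0, 2 and 5. Of 19 insulin-like peptide genes 3 rose, near the share of all genes. These were ins-37, ins-6 and daf-28, at 2.66, 1.33 and 1.18. ins-6 lost its call under DESeq2, with no filter and without any 1 pair (1.12 to 1.57). daf-28 lost its call without pair 1 (1.31) or pair 2 (0.97).

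Collagen and moulting genes changed differently in pair 3. Of 21 collagen and collagen-modifying genes that set body shape, 1 was called, although 20 had a positive log2 fold change and the median was 1.03. The medians within pairs 1, 2 and 3 were 3.51, 1.399 and -1.02. The sum over all 22 genes listed was 4954, 20219.86 and 1385 normalized reads in the controls and 24966, 53159 and 885 under RNAi. It was therefore higher under RNAi in pairs 1 and 2 and lower in pair 3. Without pair 3, 20 of the 21 were called higher with a median of 2.44, and without pair 1 or pair 2 none was called. dpy-7, a cuticle collagen of the furrows, showed 6.69, 80.7 and 16.5 in the controls and 184, 158 and 5.48 under RNAi, and bli-1, an adult cuticle collagen, showed 50.7, 781 and 3.75 and then 1858, 1447 and 6.27. The order of the libraries differed between the groups for both genes, and neither was called (adjusted p = 0.337 for dpy-7 and 0.0962 for bli-1). dpy-7 and bli-1 were named to show the family.

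Other lists of the cuticle and epidermis also had more rises without pair 3. In the main fit 17.1% of all genes tested rose and 28.5% fell. Of 26 moulting genes 2 were called higher, and 0, 1 and 10 were without pair 1, 2 or 3. Of 30 hedgehog-related genes, secreted proteins of the epidermis, 1 was called higher, and 0, 1 and 15 were without pair 1, 2 or 3. Of 25 patched-related genes 3 rose and 2 fell, and 0, 1 and 9 rose without pair 1, 2 or 3. Of 106 numbered cuticle collagens 21 rose and 12 fell, with 10, 8 and 49 rises and 3, 14 and 8 falls without pair 1, 2 or 3. Their pattern was like that of the body-shape genes only in part. Hedgehog-related genes had medians of 1.34, 0.53 and -0.30 within pairs 1, 2 and 3, and numbered collagens 0.62, 0.68 and -0.09. Both lists thus turned negative in pair 3, by less than the body-shape genes. The medians within pair 3 were 0.046 for moulting and 0.18 for patched-related genes, both positive. The summed level of all 149 numbered collagens listed was lower under RNAi in every pair. In wild-type, where 29.7% of all genes tested were called higher, 19 of 21 body-shape genes were, with a median of 2.07. The cause of the difference between pairs was not tested.

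**Figure D3:**
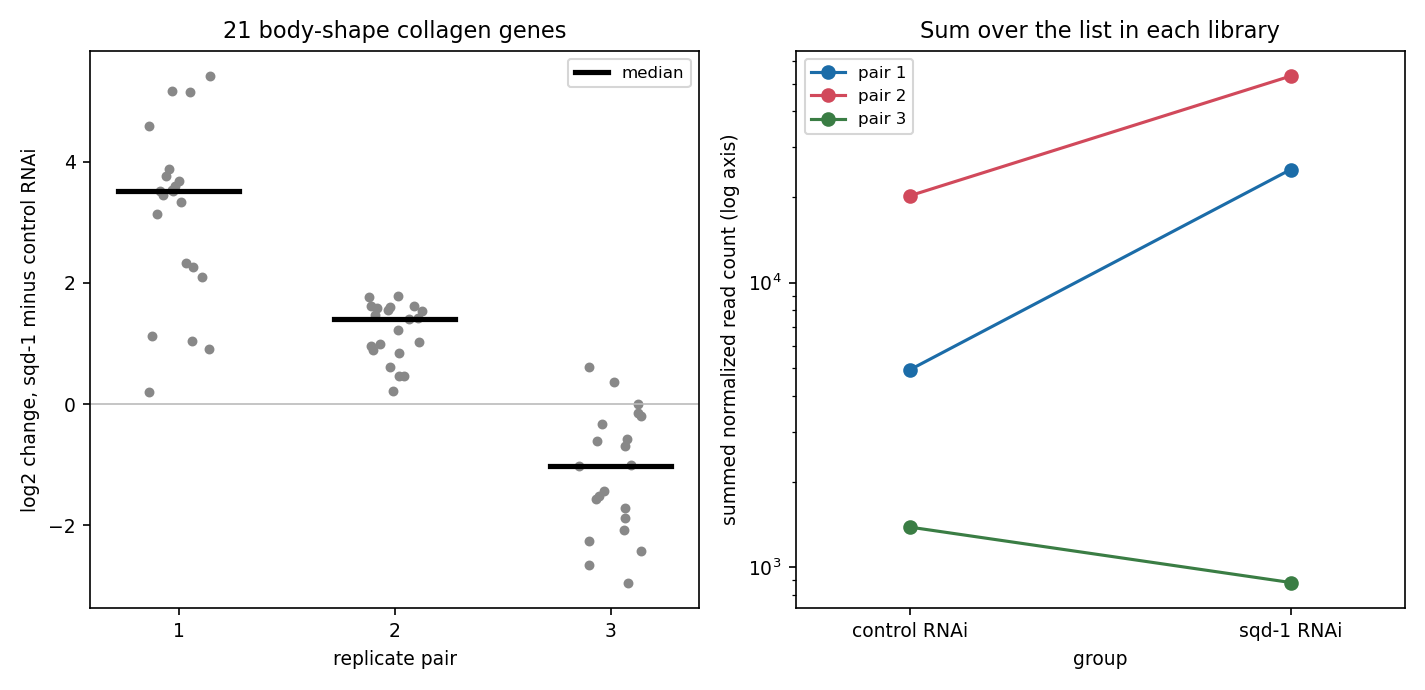
Left, log2 change within each replicate pair (sqd-1 RNAi minus control RNAi) for 21 body-shape collagen and related genes in adr-2(-), with a black bar at the median of 3.51, 1.399 and -1.02. Right, the sum of normalized read counts over all 22 genes listed, in each library on a log axis, with lines joining pairs. Pair 3 holds the lowest sums and is the pair that does not increase.

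Counts over the genes of protein synthesis and turnover turned on the pairs used. Of 70 mitochondrial ribosomal protein genes 61 fell and none rose, beside 28.5% and 17.1% of all genes tested, and the median was -0.66. Without pair 1, 2 or 3 the falls were 24, 60 and 40, and the median was -0.56, -0.77 and -0.67. Falls over all genes were 2254 of 13902, 3658 of 14080 and 3323 of 14093 in these settings. The 28 proteasome falls became 9, 30 and 15 without pair 1, 2 or 3, at a main median of -0.57. Of 80 cytoplasmic ribosomal protein genes 6 fell and 2 rose in the main fit, and 71 fell without pair 2. Within the pairs their medians were -0.52, -0.09 and -0.47, and the libraries numbered 2 had summed levels of 3346559 and 3154507 normalized reads, above the sums of 1055122 to 1590017 in the other 4. Short genes were also high in the libraries numbered 2, by 0.17 and 0.32 log2 units over the group mean for genes with under 1000 bases of exon. Whether transcript length accounts for the ribosomal values was not tested.

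Calls were unevenly spread over the chromosomes. On chromosome X 7.43% of 1924 genes tested rose and 9.41% fell. The autosomes ranged from 14.7% higher on chromosome III to 22.7% on chromosome IV, and from 23.1% lower on chromosome V to 39.0% on chromosome III. None of the 38 spermatogenesis genes tested lies on X, and the 27 major sperm protein genes lie on chromosomes II and IV, with 10 and 17. Lists that fell were also scarce on X, with 0 of 16 eggshell, 2 of 22 oocyte growth and 2 of 35 maternal polarity genes there. Neuropeptide genes had 26 of 87 on X and muscle filament genes 12 of 33. Whether the place of such genes accounts for the shares on X was not tested. Among gene classes, pseudogenes were called higher in 34.3% of 437 cases and lower in 9.38%, against 16.6% and 29.3% of protein-coding genes. Pseudogenes share sequence with their parent genes, so their counts are uncertain.

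**Figure D4:**
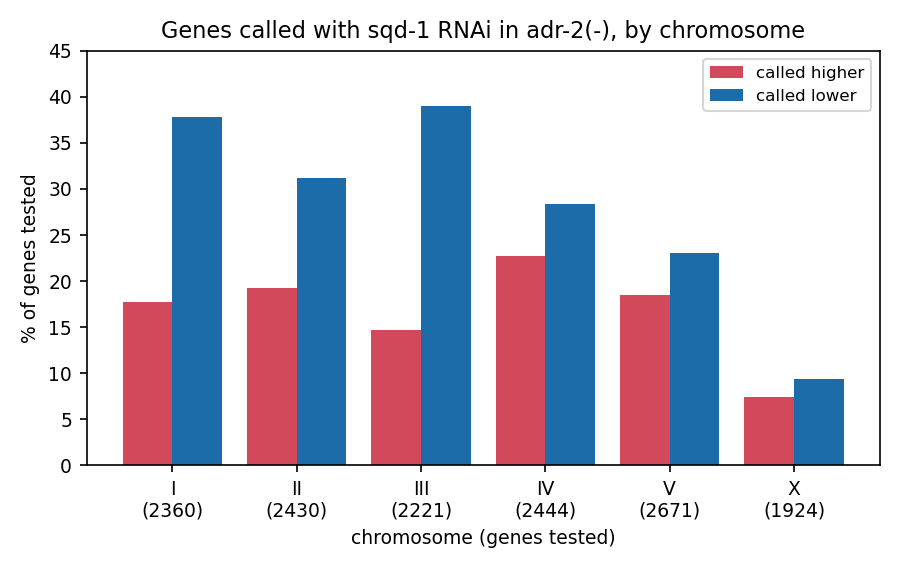
Share of genes tested on each chromosome that were called higher (red) or lower (blue) with sqd-1 RNAi in adr-2(-), in percent, with the number of genes tested in brackets. Of the nuclear chromosomes shown, X has the smallest shares in both directions, at 7.43% and 9.41%.

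The same feeding contrast in wild-type animals, which uses other control libraries, called 9532 of 14489 genes (65.8%), with 29.7% higher and 36.1% lower. Of 13945 genes tested in both genotypes 6239 were called in both, and none of these in opposite directions. That is 97.5% of the calls in adr-2(-) and 67.1% of those in wild-type. Genes that rose in adr-2(-) had a median log2 fold change of 2.03 there and 1.54 in wild-type, and genes that fell had -0.77 there and -1.03 in wild-type. These medians are taken over genes picked for their change in adr-2(-), so they are given as a description. The test of the difference itself, an interaction fitted over 14348 genes and 12 libraries, gave no gene at an adjusted p under 0.05 in limma or in edgeR. At an unadjusted p under 0.05 limma gave 1427 genes (9.95%) and edgeR 1298, and for 1285 of the 1427 (8.96% of genes tested) the log2 fold change was higher in adr-2(-) animals. No adjusted p lay below 0.141.

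Beside that background of 9.95%, genes of the oocyte were often among those at the unadjusted level. In the eggshell list this was so for 12 of 16 genes, with a median difference of 1.31 log2 units (adr-2(-) minus wild-type), and in the oocyte growth list for 17 of 22, with a median of 1.06. For chs-1 the change was -1.75 in adr-2(-) and -3.30 ± 0.111 (SE, adjusted p = 3.43e-05) in wild-type, and the difference was 1.48 ± 0.19 (SE, adjusted p = 0.141). oma-2 changed by -1.34 and -3.26 in the 2 genotypes, with a difference of 1.85 ± 0.408 (SE, adjusted p = 0.151). Replication genes reached the unadjusted level in 18 of 22 cases and maternal polarity genes in 22 of 35, with median differences of 0.745 and 0.70. The pattern was not confined to these lists. Cell cycle genes reached the level in 14 of 25 cases, Notch signalling genes in 6 of 13 and P granule genes in 9 of 21. Sex determination genes did so in 12 of 32 and recombination genes in 8 of 29.

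The sperm lists had larger rises in adr-2(-) by median, but not within every pair. The spermatogenesis list had medians of 2.30 in adr-2(-) and 1.70 in wild-type and a median difference of 0.59, and 3 of 39 genes reached an unadjusted p under 0.05. The major sperm proteins had medians of 1.63 and 0.96, and 0 of 27 did so. In the sperm chromatin list 2 of 8 genes did, with a median difference of 0.70. Spermatogenesis medians within pairs 1 to 3 were 1.97, 1.81 and 3.17 in adr-2(-) and 1.816, 2.019 and 1.218 in wild-type. For major sperm proteins they were 0.89, 1.47 and 2.51 in adr-2(-) and 1.495, 1.261 and 0.178 in wild-type. In both lists pair 3 held the highest median in adr-2(-) and the lowest in wild-type. fog-3 changed by 4.83 and 3.91, with a difference of 0.85 ± 0.267 (SE, adjusted p = 0.298). spe-44 went the other way, at -0.01 in adr-2(-) and 1.08 ± 0.11 (SE, adjusted p = 0.000124) in wild-type, with a difference of -1.17 ± 0.308 (SE, adjusted p = 0.201). sqd-1 itself changed by -3.72 and -3.40, with a difference of -0.39 ± 0.456 (SE, adjusted p = 0.859). None of these differences passed the test after adjustment over all genes.

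**Figure D5:**
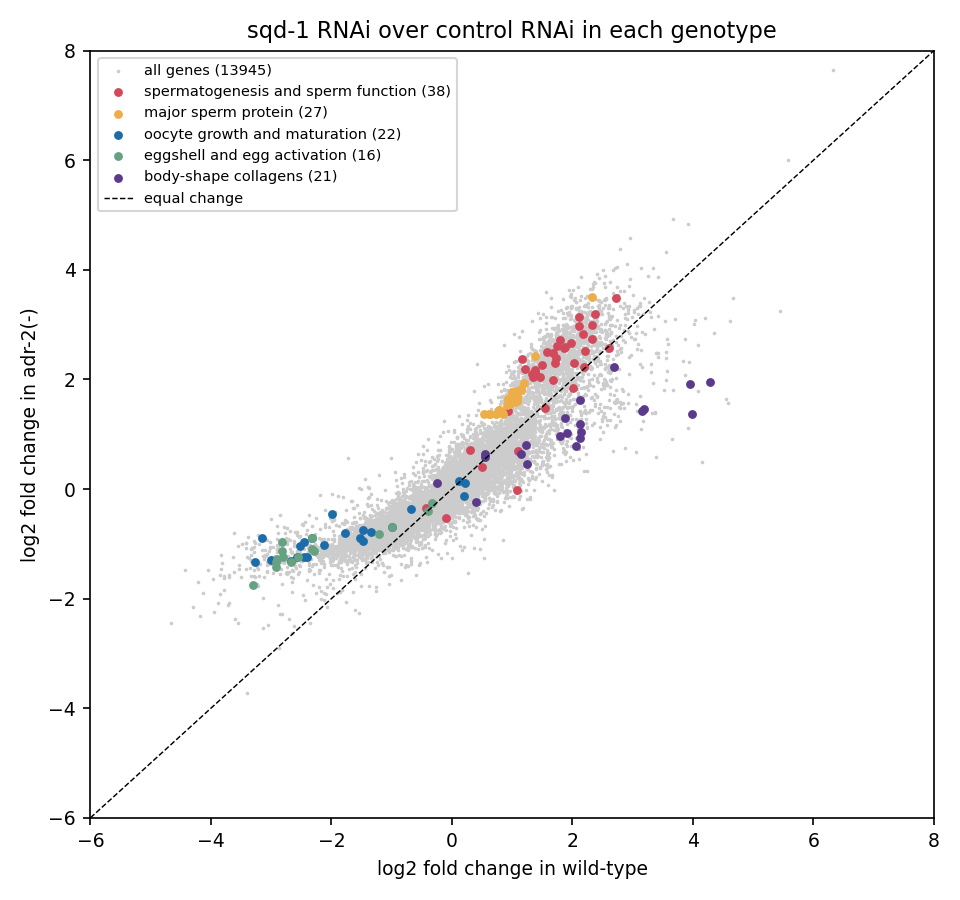
Log2 fold change of sqd-1 RNAi over control RNAi in adr-2(-) against that in wild-type for 13945 genes tested in both, with 5 gene lists colored and a dashed line of equal change. In the interaction fit the difference (adr-2(-) minus wild-type) was positive for 19 of 22 oocyte growth genes, 15 of 16 eggshell genes, 30 of 39 spermatogenesis genes and 2 of 21 body-shape genes, and no gene's difference passed the adjusted threshold.

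The authors' deposited table for the same 6 libraries, which carries an adjusted p for 16242 genes, had 1317 higher (8.11%) and 91 lower (0.56%) at an adjusted p under 0.05. The authors' deposited table had 28 of 39 spermatogenesis genes higher, with a median log2 fold change of 2.36. Only 4 of 29 major sperm protein genes were higher there, with a median of 1.53. For oocyte growth 0 of 22 genes were lower, with a median of -0.84. The medians are close to those given above for the same lists, and the counts are those of the authors' own fit.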

How the data were processed

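Whole young adult worms were sequenced as poly-A RNA with a stranded kit, per the labels' protocols. Reads were aligned with STAR 2.7.10b and analysed with DESeq2, per the submitters' processing notes, while the read counter, its use of strand and the genome build are not given in the sources used here. The authors deposited 5 pairwise tables, of which 2 were used. Per the file headers, each holds a normalized signal per gene and library (a read count over a size factor), a log2 fold change and p-values. Whole reads were recovered from these signals, with 100% of values whole within 0.01.

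limma 3.58.1 (R 4.3.3, lmFit and eBayes with trend) was run on log2(normalized value + 1), for genes whose mean over the 6 libraries reached 10, with replicate number as a block and Benjamini-Hochberg adjusted p under 0.05. Fold changes on this scale understate those of low genes. The interaction used all 12 libraries with median-of-ratios factors and a block for each genotype and number. edgeR 4.0.16 and DESeq2 1.42.0 were run on the recovered reads as alternatives, beside other scalings, filters, pseudocounts and left-out pairs. The scripts were tested on simulated data.

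The labels do not say what a replicate number stands for, nor that libraries came from separate cultures, so p-values may measure technical spread. The pairing was inferred from these libraries: deviations from group means correlated at 0.644, 0.830 and 0.692 between same-numbered adr-2(-) libraries and at -0.688 to 0.178 between unlike ones. In wild-type the same-numbered values were 0.239 to 0.254 and the unlike ones -0.165 to -0.0947. Deviations from a group mean cancel out within the group, so positive same-numbered values push the unlike ones down. The contrast between them is thus partly fixed by the centering.

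Gene names and coordinates came from Ensembl release 115 (WBcel235) and matched symbols. The comparison, the 58 gene lists and the naming rule were chosen with earlier results of these data known. The rule named sqd-1, adr-2, the 12 largest rises and falls with a mean of at least 100 and no overlap, and up to 4 called members per list and direction. csr-1, prg-1, rme-2, oma-1, lst-1, fbf-1, fbf-2, fat-5, fat-6, mab-3, htas-1, ins-6, daf-28, unc-54 and vit-2 were also named after their values were seen. adr-1 and some small RNA genes were not analysed here.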

Additional observations from a re-analysis of the deposited data

How the results depend on the processing

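The count of 6411 calls (2407 higher, 4004 lower) was 5462 to 7780 under DESeq2, edgeR, TMM, upper-quartile scaling, no trend, no filter, a mean of at least 50, pseudocounts of 0.1 and 10 and all 12 libraries. It fell to 4 (4 higher, 0 lower) with no replicate block, where the log2 fold change of sqd-1 stayed at -3.72 without a call (adjusted p = 0.0627), and 272 of 285 genes named by rule or afterwards lost their call. A log2 threshold of 1 left 2664 calls (754 lower), and limma's test against a 2-fold change, chosen after seeing the data, left 5 (5 higher, 0 lower). Without a replicate pair the count was 3796 to 5775, with 1542 to 2452 higher and 2254 to 3658 lower, and sqd-1 was -4.23 to -3.25. No gene passed the interaction in limma, with edgeR, with no block, with a pseudocount of 10 or without an adr-2(-) pair, where 207 to 1850 genes had an unadjusted p under 0.05.

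Of the same 285 genes, 58, 37 and 29 lost their call without pair 1, 2 or 3, 37 without the trend, 19 under edgeR and 14 with no filter. The called ones kept their direction in every setting run. Uncalled genes that turned were spe-44 (0.0263 with TMM, 0.0341 with upper-quartile scaling, 0.12 with edgeR, -0.333 to 0.20 without a pair), vit-2 (0.0201, 0.0280, 0.12 and -0.110 to 0.0778) and dpy-7 (-0.24 to 2.77 without a pair). The causes were not tested. Depth limits genes near the filter of 10 normalized reads.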
